A study of Mus musculus with 6 samples.

Results

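The members described here are the genes of 4 families that cut extracellular matrix or restrain that cutting: matrix metalloproteases (MMPs), ADAMTS proteases, ADAMTS-like proteins and tissue inhibitors of metalloproteases (TIMPs). They were taken by symbol, as every gene named Mmp, Adamts, Adamtsl or Timp with a number and with a protein-coding transcript type in the deposited table. The rule gave 46 of 33919 genes, namely 19 MMPs, 18 ADAMTS, 5 ADAMTS-like genes and 4 TIMPs, and no expression value was used in it. Earlier results of these data were known when the families were chosen. A further 2 symbols, Mmp21 and Adamts6, had no protein-coding transcript type in the table and were left aside. Poly(A) RNA was sequenced from tissue labelled as mouse aorta, in 3 libraries of genotype WT and 3 of genotype KO, and both groups had received Ang II, angiotensin II, a peptide that constricts vessels. The extraction text of the labels speaks of adipose tissue instead, so the tissue is given here only as labelled. The series title names endothelial OTUD1, a deubiquitinating enzyme, and SMAD3. The age of the mice, the allele, the promoter of any Cre, and the dose and time of Ang II are not stated in the labels, and there was no group without Ang II.

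MMPs and ADAMTS proteases are secreted or membrane-bound zinc enzymes, made as inactive precursors. Collagenases cut fibrillar collagen, gelatinases cut denatured collagen and basement membrane, stromelysins cut many matrix proteins, and ADAMTS enzymes trim procollagens and cut large proteoglycans such as aggrecan and versican. TIMPs bind the active site of MMPs, and Timp3 also inhibits ADAMTS enzymes. ADAMTS-like proteins resemble ADAMTS enzymes without the protease part and are found in the matrix, several of them with fibrillin microfibrils. In the vessel wall these families are known for their roles in elastin loss, aneurysm and remodelling.

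Against the label, Otud1, with 593, 699 and 615 counts under the WT label and 1033, 1141 and 1223 under the KO label, had a higher level in libraries labelled KO than in those labelled WT (log2 change 0.63, SE 0.12, adjusted p = 0.00388 by edgeR's quasi-likelihood test). The labels do not state which part of the gene was removed, so the groups are called WT and KO libraries by their labels only, and each direction is that of the libraries labelled KO. Each library held 62.3 to 71.5 megacounts, and without mitochondrial genes and their chromosome 1 copies 17.3 to 23.4 megacounts remained. Markers of skeletal muscle were far more abundant in this tissue, labelled aorta, than those of the vessel wall. The summed level of 8 skeletal muscle markers lay between 19274 and 19749 CPM (counts per megacount of library total, scaled between libraries) in the libraries labelled WT and between 25587 and 26427 in those labelled KO. By comparison, 8 smooth muscle markers summed to 543 to 551 and 177 to 181 CPM, and 8 fibroblast markers to 520 to 549 and 174 to 194 CPM. In bulk tissue, fewer cells of a type and less RNA per cell cannot be told apart, and this holds for every member below.

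Most of the members that changed were lower in the libraries labelled KO. After a filter on low counts 37 of the 46 members were tested, and of these 14 fell, 3 rose and 20 missed an adjusted p of 0.05. The members past the threshold made up 45.9% of those tested, where 22.0% of all 16620 genes tested passed. In the lower direction it was 37.8% against 10.5% of all genes, and in the higher direction 8.11% against 11.5%. The median log2 change of the tested members was -0.76, against -0.02 over all genes tested. Among the lower members, 6 fell by 2-fold or more (Mmp3, Mmp9, Adamts1, Adamts2, Adamts8 and Timp2), as did 3.97% of all genes tested. Mmp8, on few counts, was the 1 member with a fitted rise of 2-fold or more, as did 1.61% of all genes. The 3 libraries of one group lay wholly above the 3 of the other in 19 of the 37 tested members, or 51.4%, against 38.6% of all genes.

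**Figure D1:**
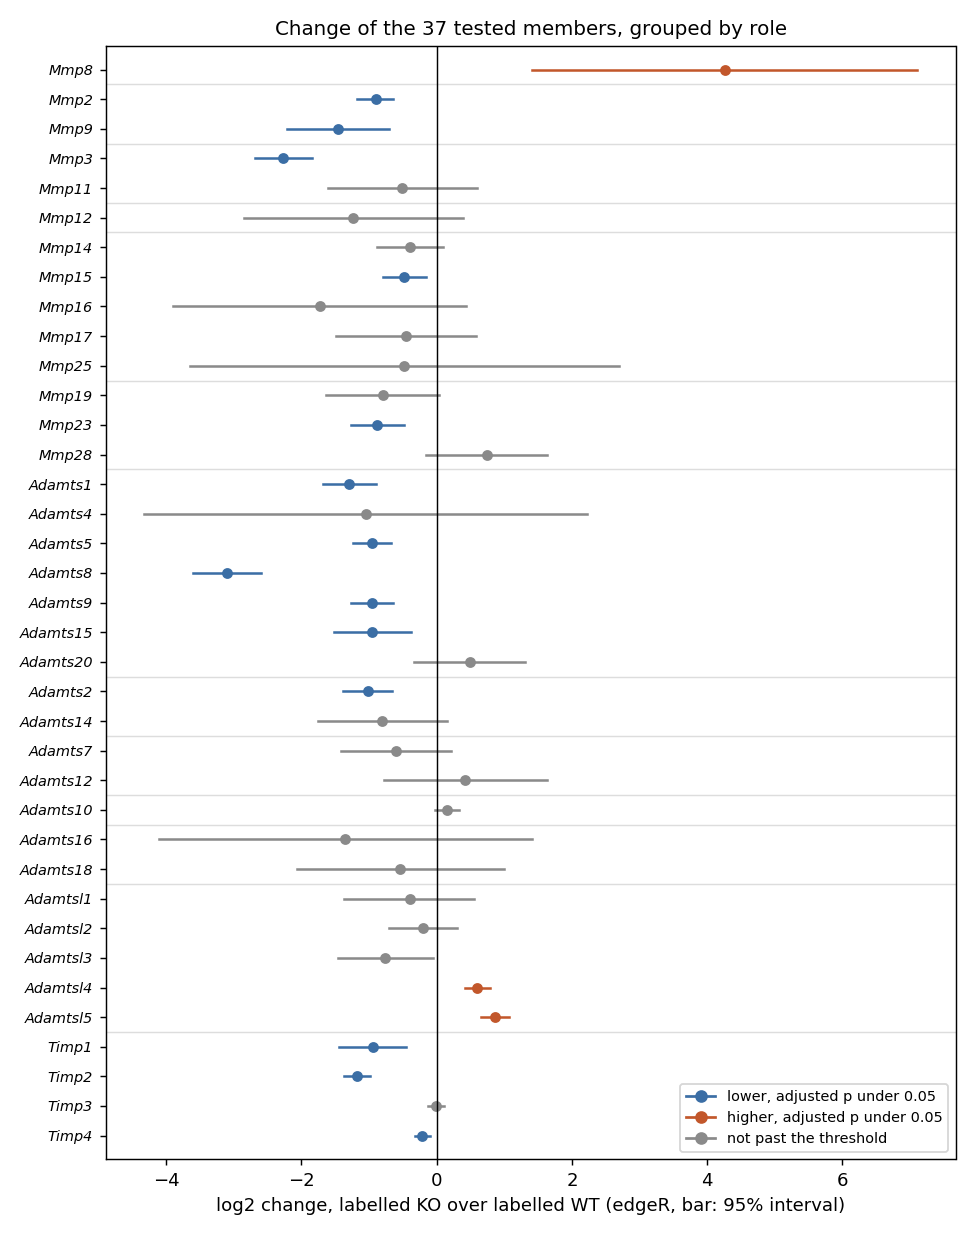
Log2 change of each of the 37 tested members in the libraries labelled KO relative to those labelled WT, with the 95% interval from edgeR as a bar, ordered by role and split by thin lines. The 14 lower members stand left of 0 and include Adamts8 at -3.10 and Mmp3 at -2.27, and the 3 higher members are Mmp8, Adamtsl4 and Adamtsl5.

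The 4 TIMPs carried more than the proteases did. In FPKM, which divides by gene length and so allows genes to be compared, TIMPs made up 55.8%, 56.5% and 56% of the summed level of all 46 members under the WT label and 52.5%, 53.1% and 54.7% under the KO label. Timp4 and Timp3 alone held 39% to 40% and 42.8% to 46%. MMPs together held 17.8% to 19.2% in the libraries labelled WT and 12.1% to 13.3% in those labelled KO, and ADAMTS proteases 12.4% to 13.1% and 8.7% to 9.4%. The ADAMTS-like genes went the other way, from 11.9% to 13.6% up to 24.5% to 25.5%. For each of these shares the 2 groups of libraries did not overlap. The ratio of summed TIMP to summed MMP FPKM, which does not depend on library scaling, was 2.91, 2.99 and 3.15 under the WT label against 3.94, 4.21 and 4.54 under the KO label. These shares and ratios are given as a description, since 3 libraries against 3 are too few for an exact test to pass.

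**Figure D2:**
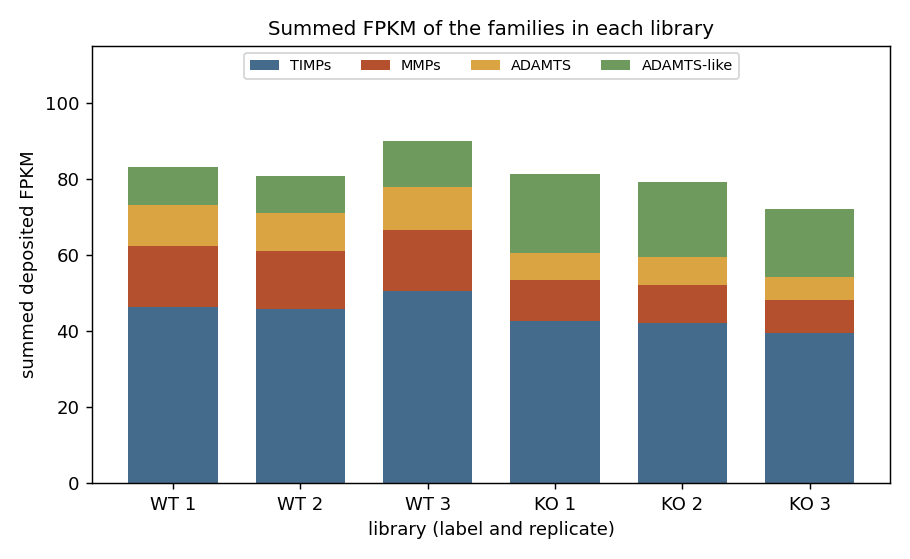
Summed deposited FPKM of the members in each of the 6 libraries, stacked by family from 0. TIMPs form the largest block in every library, and the ADAMTS-like block is the one that is taller in the libraries labelled KO, with 17.7 to 20.8 FPKM against 9.86 to 12.3.

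Both gelatinases were lower. Mmp2, gelatinase A, the most abundant MMP in both groups (chromosome 8, 92827291 to 92853420, plus strand, GRCm38), had an FPKM of 4.02, 4.03 and 4.5 (WT libraries) against 2.86, 2.58 and 2.04 (KO libraries). The groups did not overlap, and the log2 change was -0.90 (SE 0.12, adjusted p = 0.000326). Mmp9, gelatinase B, which neutrophils and macrophages store or secrete (chromosome 2, 164940780 to 164955850), had 147, 163 and 183 counts against 42, 78 and 86. Its FPKM was 0.631 ± 0.109 (SD, n = 3) and 0.248 ± 0.0782, and it fell by 1.46 on the log2 scale (SE 0.34, adjusted p = 0.0104). The 8 macrophage and monocyte markers summed to 189 to 200 CPM in the libraries labelled WT and 130 to 139 in those labelled KO, with 4 lower and 0 higher. Lyz2 held the largest part of that sum, at a mean of 91.0 and 52.7 CPM. C1qa, C1qb, Cd68 and Fcgr1 did not pass, with log2 changes of -0.09, -0.07, 0.41 and -0.35. Of 6 neutrophil markers tested 4 were higher. The part of either list in the Mmp9 call was not tested.

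Among the collagenases and stromelysins 1 gene fell and 1 rose. Mmp3, stromelysin-1, which cuts proteoglycans, fibronectin and other matrix proteins and can activate other MMPs (chromosome 9, 7445822 to 7455975, plus strand), had counts of 465, 401 and 409 (WT libraries) against 89, 120 and 93 (KO libraries). Its FPKM went from 3.20 ± 0.136 to 0.733 ± 0.106 (SD, n = 3 each), and the log2 change on scaled counts was -2.27 (SE 0.19, adjusted p = 1.23e-05). In FPKM it stood at rank 7 of the 46 members in the first group and at rank 13 in the second. Mmp8, the neutrophil collagenase (chromosome 9, 7558456 to 7568485), was the only collagenase tested. It had 0, 0 and 3 counts under the WT label against 24, 16 and 33 under the KO label, so the groups did not overlap but the counts were few. All 3 WT libraries lay below the floor of 12 counts used here, so no fold is given. The call (adjusted p = 0.0367) was lost without WT library 1 or WT library 2 (adjusted p = 0.133 and 0.133) and without any 1 library labelled KO (0.119, 0.0926 and 0.145). It was also lost without a low-count filter (0.118), and with counts divided by 4 Mmp8 did not pass the filter. The fitted log2 change, which rests on few counts, was 4.26 with all libraries and 7.54 without WT library 3. Of 6 neutrophil markers tested 4 were higher, as Mmp8 was, and 0 were lower. Ly6g, with 25, 0 and 13 counts (WT libraries) against 19, 0 and 0 (KO libraries), had a log2 change of -1.11 and did not pass. Cxcr2 (1.67) did not pass either. The markers summed to 2.33 to 3.49 CPM against 25.4 to 29.9 CPM. Ngp and Camp were at 0 in all libraries, and Retnlg was at 0 in the libraries labelled WT. The part of the neutrophil markers in the Mmp8 call was not tested. Mmp11, stromelysin-3, varied more within the groups than between them, with 199, 135 and 67 counts against 186, 65 and 67 (log2 change -0.51, 95% interval -1.60 to 0.59). Its exons overlap those of Chchd10 on the opposite strand, which had 179 ± 1.74 and 259 ± 8.74 CPM (SD, n = 3 each), and reads of the pair cannot be told apart without a strand setting.

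Mmp3 and Mmp8 lie in a cluster of MMP genes on chromosome 9, of which 7 were members. From the start of Mmp13 the others began at 71.9 kb (Mmp12), 173 kb (Mmp3), 286 kb (Mmp8), 299 kb (Mmp27), 356 kb (Mmp20) and 420 kb (Mmp7). Mmp7 and Mmp20 had no count in any library. At a floor set to 12 counts this allows up to 0.168 to 0.193 CPM, here per raw library total without the scaling used elsewhere. The floor was chosen because multiples of 4 were overrepresented among low counts. Mmp13, collagenase-3, had 12 counts in 1 library labelled WT and none elsewhere, and Mmp27 had at most 12 counts. Mmp12, the macrophage elastase, had counts of 43, 45 and 23 (WT libraries) against 8, 19 and 27 (KO libraries), with overlap (log2 change -1.23, 95% interval -2.85 to 0.39, adjusted p = 0.278). Within the cluster the level of Mmp3 thus stood above that of its neighbours in every library, at 0.658 FPKM or more against 0.168 or less.

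**Figure D3:**
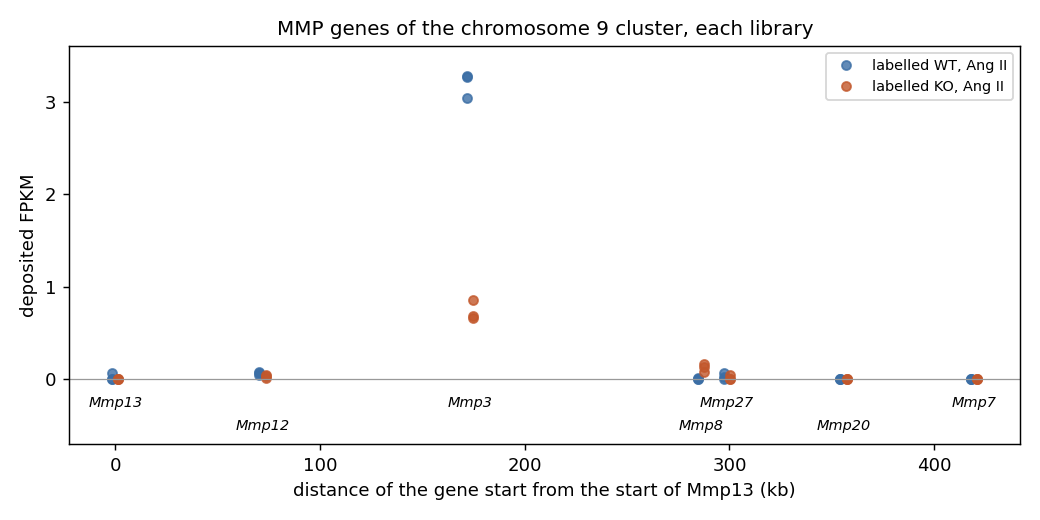
Deposited FPKM in each library (points, blue labelled WT, orange labelled KO) of the 7 MMP genes of the chromosome 9 cluster, placed by the distance of their start from the start of Mmp13. Mmp3 at 173 kb lies near 3 FPKM in the libraries labelled WT and below 1 in those labelled KO, and the other genes lie near 0.

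The start regions of this cluster are shown because Mmp3 and 4 of its near-silent neighbours hold both AP-1 and TATA letters in a start window. RefSeq windows of 300 bases (250 before to 50 after the start, GRCm38.p6) were found for 32 of the 46 members. Mmp12 and Mmp7 each had a further window, at 7344147 to 7344446 and 7692091 to 7692390, which held none of the motifs. The stretch printed for Mmp12 comes from its downstream window, 7347124 to 7347423. The AP-1 motif TGANTCA, which reads the same on both strands, was in 7.81% of 32851 windows of all genes and in 5 of the 35 windows of members, and all 5 belong to this cluster. The TATA motif TATAAA, on either strand, was in 13.6% of all windows and in 8 of the members' genes. The letters GTCTAGAC and AGCCAGACA, which SMAD proteins are known to bind, were in 0.213% and 0.387% of all windows and in 0 of those of members, which says only that these letters are not in these windows. Of the 9 lower members with a window, 1 held the AP-1 letters. Each line gives 100 bases before to 20 after the RefSeq start on the plus strand, with the AP-1 and TATA letters in capitals.
Mmp3, chr9:7445722-7445841: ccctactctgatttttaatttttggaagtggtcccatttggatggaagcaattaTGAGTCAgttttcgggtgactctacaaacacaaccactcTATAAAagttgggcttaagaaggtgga
Mmp12, chr9:7347274-7347393: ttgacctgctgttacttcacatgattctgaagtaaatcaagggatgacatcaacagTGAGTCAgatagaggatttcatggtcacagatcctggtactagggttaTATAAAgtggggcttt
Mmp13, chr9:7272414-7272533: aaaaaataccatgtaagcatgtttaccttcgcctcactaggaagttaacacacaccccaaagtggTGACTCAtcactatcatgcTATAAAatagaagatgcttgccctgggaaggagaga
Mmp7, chr9:7691990-7692109: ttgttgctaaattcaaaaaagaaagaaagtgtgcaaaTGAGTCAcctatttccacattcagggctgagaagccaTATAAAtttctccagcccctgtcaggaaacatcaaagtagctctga
Mmp20, chr9:7628131-7628250: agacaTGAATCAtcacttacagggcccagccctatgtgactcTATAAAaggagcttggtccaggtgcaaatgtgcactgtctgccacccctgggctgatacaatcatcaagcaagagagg
Mmp8, chr9:7558329-7558448: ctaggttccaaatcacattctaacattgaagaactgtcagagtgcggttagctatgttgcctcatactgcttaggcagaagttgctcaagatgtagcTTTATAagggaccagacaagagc

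The AP-1 letters began 46 bases before the start in Mmp3, 44 in Mmp12, 35 in Mmp13, 63 in Mmp7 and 95 in Mmp20. In Mmp12 the TATA letters lay after the start of the printed stretch's window, from base 5. Mmp3, Mmp12 and Mmp7 carried the same 7 letters, TGAGTCA, while their highest FPKM in any library was 3.28, 0.0846 and 0. Mmp8, the member of the cluster that was higher in the libraries labelled KO, held no AP-1 letters in its window, and its TATA letters lay on the minus strand. The window of Mmp27, the remaining member of the cluster, held none of the motifs searched. A match is a description of letters, and no binding was measured here.

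Of the membrane-type MMPs, which sit at the cell surface, 1 of 5 tested was lower. Mmp14, which cuts collagen and activates the Mmp2 precursor, had an FPKM of 0.807, 0.676 and 0.573 under the WT label against 0.651, 0.444 and 0.645 under the KO label. These groups overlapped, and the log2 change was -0.40 (95% interval -0.88 to 0.09, adjusted p = 0.242). Mmp15 had the higher level, 2.45 ± 0.483 and 1.95 ± 0.280 FPKM (SD, n = 3 each). It fell by 0.48 on the log2 scale (SE 0.14, adjusted p = 0.0353), but its groups overlapped in FPKM, and the call was lost without WT library 1 (adjusted p = 0.145), WT library 3 (0.0863), KO library 2 (0.0881) or KO library 3 (0.116). It was also lost without a low-count filter (0.0501) and in limma on FPKM as scaled by the authors (0.192 to 0.426). Mmp16, Mmp17 and Mmp25 had at most 81 counts in any library and did not pass. Mmp24 had no count in any library.

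The remaining MMPs with a level above the filter were Mmp19, Mmp23 and Mmp28. Mmp23 was lower, with an FPKM of 1.83, 1.79 and 2.17 against 1.33, 1.01 and 1.14, groups that did not overlap (log2 change -0.88, SE 0.18, adjusted p = 0.00511). Mmp19 had 275, 416 and 161 counts under the WT label against 277, 159 and 129 under the KO label (log2 change -0.79, 95% interval -1.63 to 0.04). Mmp28, epilysin, had 119, 169 and 240 counts against 155, 540 and 325 (log2 change 0.74, 95% interval -0.15 to 1.63). In both genes the libraries of 1 group spread by more than the distance between the group means.

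Of the 7 ADAMTS genes listed as cutting proteoglycans, all were tested, 5 were lower and 0 were higher. Adamts8 had the lowest log2 change of the 37 members (chromosome 9, 30942562 to 30963838, plus strand). It had counts of 706, 498 and 509 (WT libraries) against 59, 99 and 69 (KO libraries). Its FPKM went from 1.67 ± 0.245 to 0.214 ± 0.0535 (SD, n = 3 each), and its rank among the 46 members from 13 to 22. In edgeR's fit to the scaled counts it was 8.58-fold lower (log2 change -3.10, SE 0.23, adjusted p = 4.12e-06). Its neighbour Adamts15, transcribed from the other strand (30899155 to 30922452), went from 0.281 ± 0.0160 to 0.161 ± 0.0409 FPKM. On scaled counts the log2 change of Adamts15 was -0.95 (SE 0.26, adjusted p = 0.0223). The call was lost without WT library 1 or 2 (adjusted p = 0.0737 and 0.0591), without KO library 1 or 2 (0.0556 and 0.0713), and in limma on FPKM without a filter (0.137).

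Adamts1 and Adamts5, which also lie next to each other (chromosome 16, 85793827 to 85803113 and 85856173 to 85901828, minus strand), were both lower. Adamts1, which cuts aggrecan and versican, had an FPKM of 2.61, 2.68 and 2.91 (WT libraries) against 1.3, 1.57 and 0.862 (KO libraries). On scaled counts its log2 change was -1.29 (SE 0.18, adjusted p = 0.000449). Adamts5, the main aggrecanase of mouse cartilage, went from 1.07, 1.01 and 1.10 to 0.540, 0.672 and 0.607 FPKM (log2 change -0.95, SE 0.12, adjusted p = 0.000288). Adamts9 went from 0.888 ± 0.0717 to 0.509 ± 0.0997 FPKM (SD, n = 3 each), with a log2 change of -0.95 (SE 0.14, adjusted p = 0.00058), a call lost in limma on FPKM without a filter (adjusted p = 0.0615). In each of these 3 genes the groups did not overlap. Tendon and cartilage markers moved with these genes, at 76.4 to 77.8 CPM in sum against 5.22 to 6.50, with 5 of 6 tested lower. Acan, the aggrecan gene, not tested, had 27, 19 and 0 counts under the WT label and 0 in each library labelled KO. Vcan, the versican gene, was tested and did not pass (log2 change -0.13, 95% interval -1.07 to 0.82, adjusted p = 0.88). The part of the tendon and cartilage markers in the calls was not tested. Adamts4 had few counts, 14, 0 and 61 counts against 26, 0 and 15 (log2 change -1.04, 95% interval -4.32 to 2.23). Adamts20 was at 0.139 FPKM or less in both group means (log2 change 0.49, 95% interval -0.34 to 1.31).

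The procollagen-processing and other ADAMTS genes were lower in 1 case. Adamts2, which removes the N-propeptide of fibrillar procollagens (chromosome 11, 50602084 to 50807573), had 597, 431 and 609 counts under the WT label against 265, 338 and 316 under the KO label. The groups did not overlap, and the log2 change was -1.02 (SE 0.16, adjusted p = 0.00113), a call lost in limma on FPKM without a filter (adjusted p = 0.0806). Adamts14, of the same role, had 160, 59 and 91 counts against 49, 60 and 91 and did not pass (log2 change -0.80, 95% interval -1.76 to 0.16). Adamts3 had 12 counts in all. Adamts7 and Adamts12, which cut the cartilage protein COMP, had log2 changes of -0.60 (95% interval -1.42 to 0.22) and 0.42 (-0.78 to 1.63), and Adamts7 shares exon sequence with Tbc1d2b on the opposite strand. Adamts10, which binds fibrillin, had an FPKM of 2.48, 2.59 and 2.53 against 3.30, 3.12 and 2.96. Its groups did not overlap, yet its log2 change of 0.15 (SE 0.08, adjusted p = 0.226) did not pass on the counts, and in limma the outcome depended on filter and scaling. It passed on log2(FPKM + 1) with a filter on low FPKM (0.22, adjusted p = 0.0384), but not without that filter (0.22, adjusted p = 0.0621) or with median-ratio scaling (0.07, adjusted p = 0.459). Adamts13, which cuts von Willebrand factor, had no count, and Adamts16, Adamts17, Adamts18 and Adamts19 had at most 55 counts in any library.

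**Figure D4:**
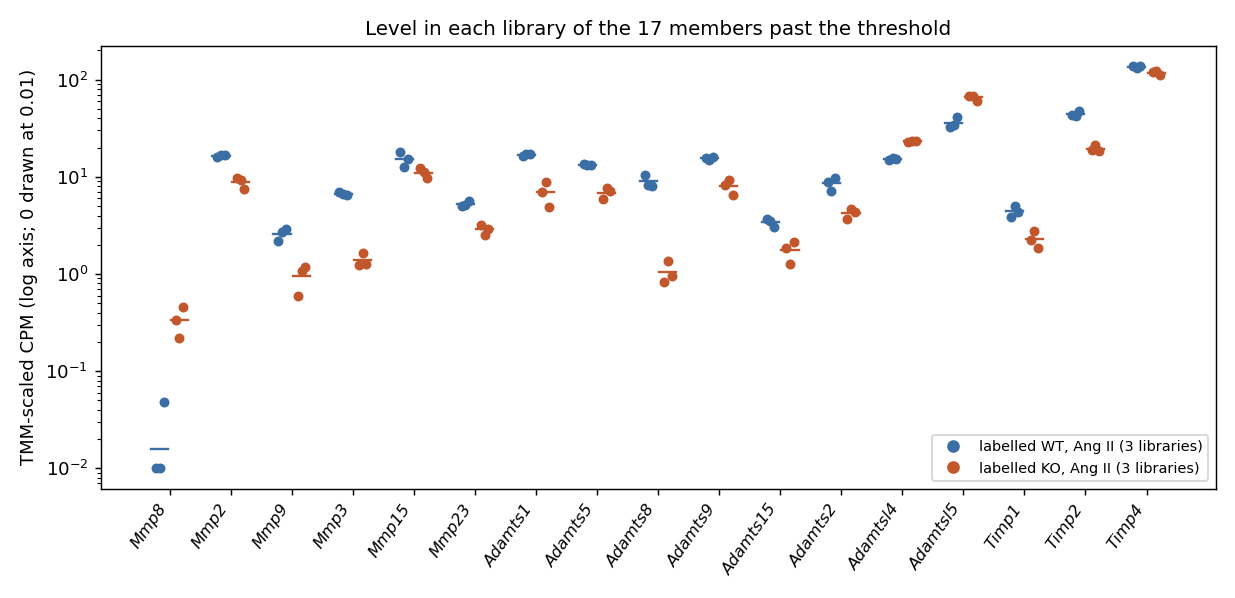
Scaled CPM in each library of the 17 members past the threshold, on a log axis, with a short line at each group mean (blue labelled WT, orange labelled KO, 3 libraries each, 0 drawn at 0.01). The groups stand apart in each gene, from 8.13 to 10.5 against 0.828 to 1.35 CPM in Adamts8 to the narrow gap of Mmp15, 12.6 to 18.1 against 9.81 to 12.2 CPM.

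The 2 most abundant ADAMTS-like genes were higher. Adamtsl5, which binds fibrillin microfibrils and heparin (chromosome 10, 80339110 to 80348412, minus strand), had an FPKM of 5.91, 5.94 and 7.90 under the WT label against 14.3, 13.7 and 11.8 under the KO label. It rose by 0.86 on the log2 scale (SE 0.09, 1.82-fold, adjusted p = 7.75e-05). Adamtsl4, which promotes fibrillin-1 microfibril assembly and is known for its role in the lens zonule (chromosome 3, 95676201 to 95687917, minus strand), had 1009, 946 and 953 counts against 1640, 1723 and 1692. It rose by 0.60 (SE 0.08, 1.52-fold, adjusted p = 0.000397). In both genes the groups did not overlap. The ratio of Adamtsl5 to Adamtsl4 FPKM within a library was 1.93, 1.93 and 2.41 against 2.63, 2.58 and 2.30, with overlap. Adamtsl1, Adamtsl2 and Adamtsl3 did not pass, with log2 changes of -0.40 (95% interval -1.37 to 0.56), -0.20 (-0.70 to 0.30) and -0.76 (-1.46 to -0.06, adjusted p = 0.121). Skeletal muscle markers moved the same way as Adamtsl4 and Adamtsl5, as 6 of 8 were higher and 0 lower, and the part of that in these 2 calls was not tested.

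The 4 inhibitors did not move together. Timp2, which binds Mmp2 and takes part in its activation by Mmp14 (chromosome 11, 118301069 to 118355740), had an FPKM of 9.39, 8.81 and 11 (WT libraries) against 4.80, 5.19 and 4.35 (KO libraries). It fell by 1.18 on the log2 scale (SE 0.09, adjusted p = 5.7e-06). Timp1, a secreted inhibitor induced in many injured tissues (chromosome X, 20870166 to 20874735), had 261, 304 and 269 counts against 161, 203 and 134. It fell by 0.94 (SE 0.22, adjusted p = 0.0116), and neither gene's groups overlapped. The ratio of Timp2 to Mmp2 FPKM within a library was 2.33, 2.19 and 2.45 under the WT label against 1.68, 2.01 and 2.13 under the KO label.

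Timp3 and Timp4 were the most abundant members in both groups, and their levels were similar in the 2 groups. Timp4, the TIMP known for its abundance in heart, muscle and fat (chromosome 6, 115241892 to 115252205), had an FPKM of 19.8, 18.4 and 21.2 against 20.1, 19.5 and 17.5, with overlap. On scaled counts it fell by 0.21 (SE 0.05, adjusted p = 0.0115), 1.15-fold. In limma on the deposited FPKM the change was -0.05 (adjusted p = 0.622), whereas with FPKM rescaled by median ratios it was -0.26 (adjusted p = 0.00583), and the call was also lost without KO library 3 (adjusted p = 0.052). Timp3, which binds to the matrix itself and also inhibits ADAMTS enzymes (chromosome 10, 86300372 to 86349506), had 13.5, 13.8 and 13.9 FPKM under the WT label against 15.4, 14.5 and 15.6 under the KO label. On scaled counts its log2 change was -0.01 (95% interval -0.13 to 0.11), and on FPKM it was 0.13 without passing, so its direction depended on the scaling. The median of all genes moved by 0.15 in limma on FPKM and by -0.02 in the fit to counts. With FPKM rescaled by median ratios Timp3 stood at -0.07, also without passing.

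Timp1, Timp3 and Timp4 each lie inside a synapsin gene on the opposite strand, Syn1, Syn3 and Syn2. Exons of Timp3 and Timp4 overlap exons of their hosts, which had 1.33 ± 0.850 and 0.743 ± 0.422 CPM (Syn3) and 2.66 ± 0.316 and 3.87 ± 0.289 CPM (Syn2, SD, n = 3 each). Against these, Timp3 had 130 ± 5.72 and 129 ± 6.62 CPM and Timp4 had 136 ± 3.04 and 118 ± 5.24 CPM. In all, exons of 12 members overlap another gene. For Adamts8 this is the antisense gene Gm29724, for which no values were given. Tmem198b, opposite Mmp19, had a mean of 3.39 and 4.49 CPM, beside 4.53 and 2.61 for Mmp19. On the strand opposite Mmp28, 1700020L24Rik had 1.81 and 2.42 CPM, beside 2.81 and 4.68 for Mmp28.

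Around these families, 55 genes of other matrix proteases, their regulators and their substrates were listed, with earlier results of these data known. Among the listed genes 48 were tested, 16 were lower and 4 were higher, beside 10.5% of all genes lower and 11.5% higher. Because of how the lists were chosen, these counts are a description and not a test against all genes. The substrates of ADAMTS enzymes and other matrix proteins had 4 of 9 lower and 1 higher. Among them Comp fell by 3.75 on the log2 scale (adjusted p = 1.19e-07), and the small proteoglycans decorin (Dcn) and biglycan (Bgn) fell by 1.69 (2.58e-08) and 1.11 (1.36e-07). The higher one was Vwf, the substrate of Adamts13, with a log2 change of 1.27 (adjusted p = 6.3e-07). Comp, Dcn and Vwf also belong to the tendon and cartilage, fibroblast and endothelial marker lists, so they are counted in both places. Of the regulators and other inhibitors 5 of 11 were lower and 1 was higher. Bsg, basigin, known as an inducer of MMPs, rose by 0.65 (adjusted p = 7.96e-06). Cst3, an inhibitor of cysteine proteases, fell by 0.31 (0.000281), and Pcolce2, which enhances procollagen C-propeptide removal, fell by 2.09 (0.00093).

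In the plasminogen system, whose protease plasmin can activate MMP precursors, 2 of 7 tested genes were lower and 0 higher. Plg, plasminogen, fell by 3.15 on the log2 scale (adjusted p = 0.0302). Plat, a plasminogen activator, had a log2 change of -0.56 and did not pass. Plg is made mainly in liver, and hepatocyte markers had 7 of 8 lower, at 164 to 172 CPM in sum against 73.2 to 74.2. Trf held the largest part of that sum, at a mean of 78.2 CPM (WT libraries) and 63.8 CPM (KO libraries), while Alb had 69.5 and 7.02 CPM. The part of the hepatocyte markers in the Plg call was not tested. Cathepsins, lysosomal proteases, split, with 2 of 5 lower and 2 higher. Ctsd rose by 0.89 (adjusted p = 7.4e-08) and Ctsb by 0.26 (0.000918), whereas Ctss fell by 0.91 (0.000344). Of 8 tolloid, HtrA and other serine proteases 2 were lower, Htra1 by 0.92 (adjusted p = 0.000494) and Pcsk5 by 0.84 (0.0226), and Htra3 had a log2 change of 0.20 without passing. ADAM proteases, membrane-bound relatives of the ADAMTS family, had 1 of 8 lower, Adam15 with a log2 change of -0.23 (adjusted p = 0.0498), and 0 higher, while Adam8 (0.80) and Adam19 (-0.77) did not pass.

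Markers of several other cell types moved together with the members. Smooth muscle and fibroblast markers each had 7 of 8 lower and 0 higher, with median log2 changes of -1.8 and -1.5, and Myocd was at 0 in the libraries labelled KO. Endothelial markers had 3 of 8 lower and 2 higher and summed to 563 to 584 CPM against 534 to 538. Lymphocyte markers had 2 of 6 lower, at 22.8 to 26.2 CPM against 7.91 to 9.42, with Cd3e at 0 in the libraries labelled KO. Ighm made up most of that sum, at a mean of 22.0 and 7.35 CPM. Adipocyte markers had 4 of 8 lower and 2 higher, at 2328 to 2396 CPM against 2267 to 2364, mostly Fabp4 (mean 1789 and 1609 CPM). Epithelial markers had 2 of 4 tested lower, at 39.1 to 47.7 CPM against 39.6 to 41.0. Krt5 and Krt13 were at 0 in all libraries. Epcam went from 104, 88 and 99 counts (WT libraries) to 0 in each library labelled KO. Krt4, not tested, lay below the floor of 12 counts in every library, at 0, 7 and 0 (WT libraries) and 0 (KO libraries). The part of these shifts in the lower MMP, ADAMTS and TIMP genes was not tested. Mitochondrial genes and their copies also differed, taking 71.1% to 73.7% of counts in the libraries labelled WT and 64.8% to 67.8% in those labelled KO, and with them left out 14 members were lower and 3 higher.

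**Figure D5:**
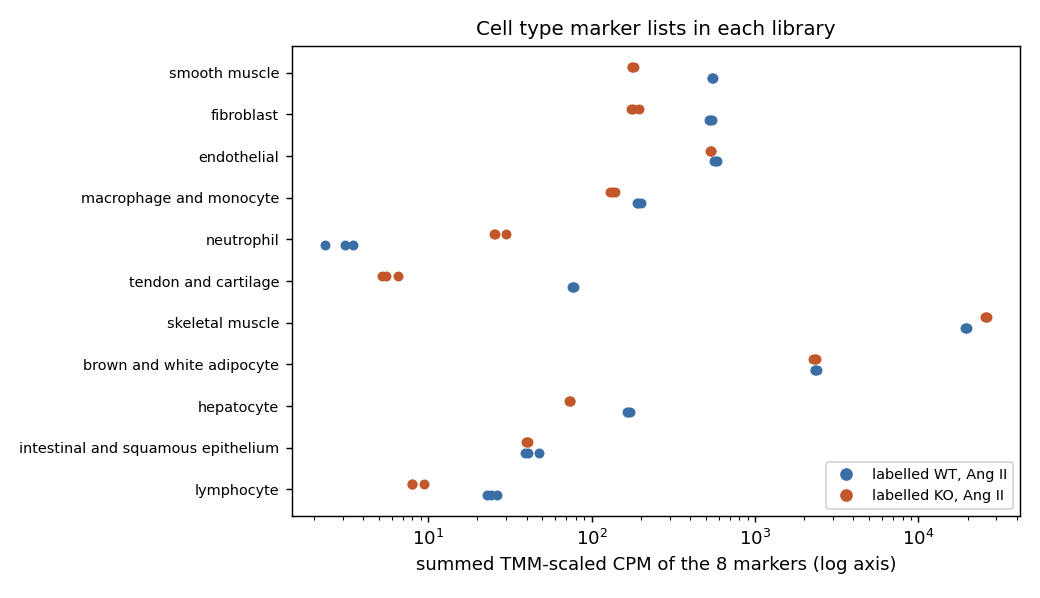
Summed scaled CPM of each marker list in each library (points, blue labelled WT, orange labelled KO), on a log axis. Smooth muscle, fibroblast and tendon and cartilage markers are lower in the libraries labelled KO, and skeletal muscle and neutrophil markers are higher. The adipocyte and epithelial sums, mostly Fabp4 and Lgals4, overlap.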

How the data were processed

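Gene counts and FPKM were used as the authors deposited them in 1 table of 6 libraries. FPKM, in the authors' deposited columns, is per length and per library total. No counter, strand setting or annotation is stated. Bowtie 0.12.2, HISAT2 2.0 and mm8 appear, per the submitters' processing notes, without roles, yet 39 of 46 members have the coordinates of GENCODE M21 (GRCm38), the build printed. Low counts favoured multiples of 4 (33.0% to 34.9% of counts from 1 to 40, 25% expected), so the floor was 12 counts.

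Counts were tested between genotypes with edgeR 4.0.16 in R 4.3.3 (filterByExpr, TMM, quasi-likelihood F-test, two-sided, Benjamini-Hochberg over 16620 genes, threshold 0.05). Log2 changes and folds come from this fit to the counts, not from the FPKM, unless another fit is named. SEs are the log2 change divided by the square root of F. CPM are TMM-scaled. The script was tested on simulated data. P-values cover only the spread among the 6 libraries, which may be technical, as the labels do not say that each came from a separate mouse. Members and lists were chosen with earlier results of these data known. Named genes were all members past the threshold, the TIMPs, Mmp2, Mmp9, Mmp14, Adamts1, Adamts4 and Adamts5, and the 3 smallest p-values of each pathway list, some of which are not reported here. Other members, Vcan, and the marker and overlapping genes were named after their values were seen. DESeq2 1.42.0, limma 3.58.1 on log2 of the deposited FPKM plus a pseudocount, other filters, scalings and left-out libraries were alternatives.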

Additional observations from a re-analysis of the deposited data

How the results depend on the processing

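Of 348 comparisons of a named member with an alternative, 312 kept direction and side of the threshold, 28 lost the call, 0 gained one and 8 changed sign, and 11 of the 17 called members kept theirs in every alternative that tested them. Lower members numbered 14 in edgeR, 16 in DESeq2, 8 in limma on log2(FPKM + 1), 8 with 0.1 and 8 with 0.5 as pseudocount (16 members tested), and 9 without a filter, but 10 with FPKM rescaled by median ratios. Lower pathway genes numbered 16 in edgeR, 7, 7, 7 and 9 in those 4 limma fits, and 11 with the rescaled FPKM. Leaving out 1 library gave 12 to 14 lower and 2 to 3 higher members, and 12 to 15 lower and 4 higher pathway genes. Over the left-out libraries Adamts4 ran from -1.91 to 0.84 and Timp3 from -0.05 to 0.02. Signs changed for Adamts4 (0.84 without WT replicate 3) and Timp3 (0.02 without WT replicate 2, 0.01 without KO replicate 1, 0.01 without KO replicate 2, and 0.13, 0.14, 0.14 and 0.13 in the limma fits with pseudocounts 1, 0.1 and 0.5 and without a filter). The causes were not tested. The library numbers did not pair the samples, with same-numbered correlations of 0.024, -0.009 and 0.018. With the replicate block 14 members were lower and 2 higher, Mmp8 losing its call (adjusted p = 0.0678), and 16 pathway genes lower and 4 higher. Mmp13 in every library and Mmp8 in the WT libraries lay at or under the floor of 12 counts, so their levels there were not resolved at this depth.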
